A study of Caenorhabditis elegans with 4 samples.

Results

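The 7 genes described here make or shape the worm's outer surface, or are grouped with such genes, and none of them encodes a collagen. They are the astacin protease genes nas-21 and nas-27, the hedgehog-related gene wrt-6, the epidermal attachment gene mup-4, and the prion-like genes pqn-54, pqn-63 and abu-12. They were chosen by name from genes that the authors' deposited tables list between 2 strains of Caenorhabditis elegans. All 7 were found, among 302 gene names in 4 tables, and each stands in 1 table and at a locus that carries no other gene name. In the RefSeq annotation of WBcel235 no other gene, on either strand, overlaps any of them. Because being listed is what put them in the set, their direction and their number are a description and support nothing further.

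The data are RNA-seq of whole worms grown to young adults on OP50, the usual bacterial food. N2 is the standard wild-type strain, while VZ1 is known to lack part of trx-1, the gene of a thioredoxin found in a pair of head neurons. The gene trx-1 is listed in no table, so its level cannot check the strain labels. The 4 groups are unstressed N2, stressed N2, unstressed VZ1 and stressed VZ1. Stress was 10 mM NaAs (sodium arsenite, which causes oxidative stress) for 5 h. Each group has 1 library, so no difference below has a replicate check or an error, and library depth is not known. Levels are FPKM, fragments scaled to exon length and to the number of fragments mapped.

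The nematode's epidermis lays down a collagen cuticle and replaces it at each larval molt. Secreted proteases of the astacin family help to process cuticle proteins and to free the old cuticle in this animal, as is known for nas-36 and nas-37. Hedgehog-related proteins are a large secreted family in C. elegans, many of them made in the epidermis, and several members and their patched-related receptors are needed for molting. MUP-4 is a transmembrane protein of the attachment structures that fasten the cuticle, through the epidermis, to the body wall muscle. The pqn genes are named for glutamine- and asparagine-rich prion-like stretches, and the abu genes were named for activation when the unfolded protein response is blocked. Members of both families have been tied to the cuticle lining of the pharynx, so that "epidermal" may not describe all 7 genes. The tables cannot check this, since they hold only called genes and list none of the 5 epidermal markers dpy-7, col-19, rol-6, mlt-10 and wrt-2.

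In every listed case the gene was lower in VZ1 than in N2. So were most listed genes of any kind, 60 of 63 without stress and 70 of 73 under stress. Without stress the authors' table lists nas-27, pqn-63 and pqn-54, at 8.10%, 17.2% and 21.2% of their N2 level. Under arsenite it lists abu-12, wrt-6 and mup-4, at 20.2%, 22.1% and 29.4% of their N2 level, and nas-21 at 0. Among all genes tested, 0.416% were listed as lower in VZ1 without stress (60 of 14419) and 0.488% under stress (70 of 14358). In whole worms, fewer cells of a type and less RNA per cell cannot be told apart.

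**Figure D1:**
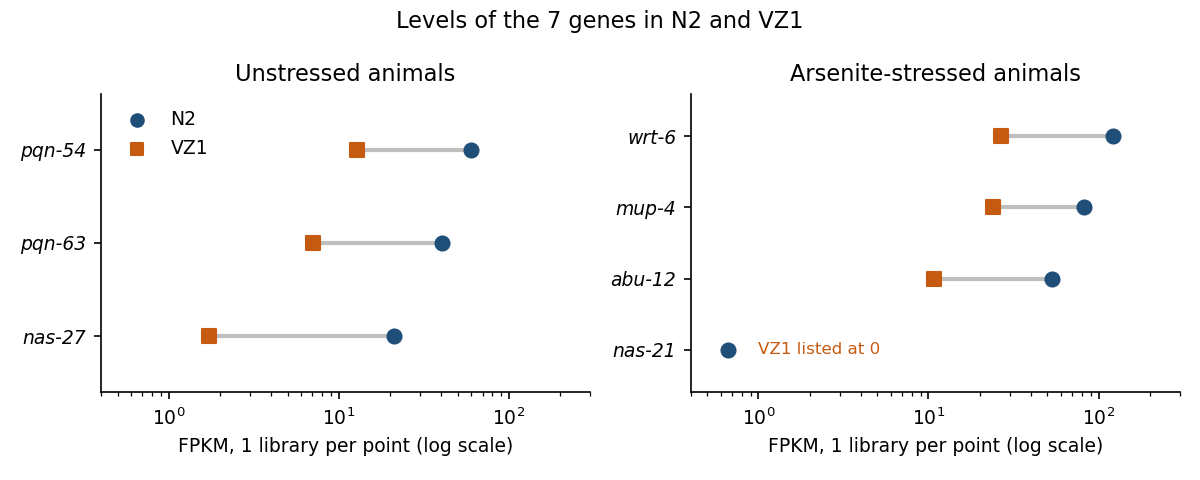
FPKM of each gene in the N2 library (circles) and the VZ1 library (squares), on a log axis, for unstressed animals (left) and arsenite-stressed animals (right), with 1 library per point and no error. The VZ1 point lies to the left of the N2 point for each of the 6 genes measured above 0 in both strains, and nas-21 has no VZ1 point because it is listed at 0.

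Among the astacin proteases, nas-27 had the largest strain difference of the 6 genes for which a ratio exists. It is annotated as a protein-coding gene (WBGene00003545) of 8 exons on the minus strand of chromosome II, and the table places its locus at 1176077 to 1179144 of ce10. Its level was 21.2 FPKM in unstressed N2 and 1.72 FPKM in unstressed VZ1. That is a 12.3-fold difference, or a log2 ratio of VZ1 over N2 of −3.63. In the authors' deposited table its p-value is 5e-05 and its q-value 0.0141, the smallest values there, which 51 of the 63 listed genes share. Of the 58 genes that were lower in VZ1 and above 0 in both strains, 23 had a larger fall and 34 a smaller one.

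The other astacin gene, nas-21 (WBGene00003540), lies on the plus strand of chromosome V at 11472549 to 11473876 of ce10 and has 5 exons. In stressed animals it stood at 0.663 FPKM in N2 and was listed at 0 in VZ1, so no fold is given. The authors' deposited table gives it a p-value of 5e-05 and a q-value of 0.0133, the smallest values there, which 54 of the 73 entries share. Its N2 level was the lowest of the 73 entries in that table. With a transcript of 1152 nt, 0.663 FPKM corresponds to about 0.764 fragments per 1000000 mapped. How many fragments that is cannot be stated without the depth. It was 1 of 7 genes listed at 0 in stressed VZ1. Of the other 6, srd-63 and clec-219 also stood below 1 FPKM in N2, at 0.708 and 0.964 FPKM. The annotated coding neighbours of nas-21 are the astacin genes nas-20 and nas-22, and reads shared among such relatives can be split between them, which makes a value this low uncertain. Neither neighbour is listed.

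The astacin family counts 40 annotated genes, so nas-27 and nas-21 are 1 of 40 (2.5%) in each strain table. Of all genes tested, 0.437% are listed without stress and 0.508% under stress, but nas-27 and nas-21 were chosen because they were listed. None of the other 38, among them the molting proteases nas-36 and nas-37 and the collagen-processing protease gene dpy-31, is listed in any of the 4 tables. A gene that is not listed has no value here, and may have differed less or not have been tested.

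wrt-6 (WBGene00006952) belongs to the warthog branch of the hedgehog-related genes. It has 10 exons on the plus strand of chromosome X, with its locus at 3480171 to 3483657 of ce10. In stressed N2 it stood at 121 FPKM, the highest among the 4 genes of the set in that table, and in stressed VZ1 at 26.8 FPKM. The difference was 4.52-fold (log2 −2.18). Its p-value of 5e-05 and q-value of 0.0133 are the smallest in the authors' deposited table, shared by 54 of 73 entries. Of 61 hedgehog-related ligand genes wrt-6 alone (1.64%) is listed between the stressed strains, where 0.508% of genes tested are. None of the 61 is listed in the 3 other tables. None of 28 patched-related genes, which encode the candidate receptors, is listed in any table.

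mup-4 (WBGene00003497) spans 7479594 to 7489007 of chromosome III in ce10, on the minus strand, and is annotated with 20 exons. It stood at 82.0 FPKM in stressed N2 and 24.1 FPKM in stressed VZ1, a 3.40-fold difference (log2 −1.77). This was the smallest difference of the 6 genes, and of 63 genes lower in stressed VZ1 with a value above 0 it ranked 62nd by size. Its q-value in the authors' deposited table is 0.0492, the largest in that table, and its p-value of 0.00025 is shared by 4 entries. It is thus the member nearest to the limit of the authors' call. Its long transcript of 6752 nt means that it gave the most fragments of the 4 genes, about 554 and 163 per 1000000 mapped in N2 and VZ1. Of a list of 10 attachment genes mup-4 alone (10%) is listed between the stressed strains, where 0.508% of genes tested are. It was chosen because it was listed. No other gene of that list is listed in any of the 4 tables, which list from 0.437% to 1.05% of genes tested. That list holds mua-3, which encodes a related attachment protein, vab-10, and intermediate filament genes.

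The prion-like genes pqn-54 and pqn-63 both lie on the plus strand of chromosome V and are short, with 3 and 2 exons. pqn-54 (WBGene00004139), at 1465014 to 1466275 of ce10, stood at 60.3 FPKM in unstressed N2 and 12.8 FPKM in unstressed VZ1. Its difference of 4.71-fold (log2 −2.24) has a p-value of 0.00015 and a q-value of 0.0349 in the authors' deposited table. pqn-63 (WBGene00004146), at 9616028 to 9617512, stood at 40.6 and 7.01 FPKM. Its difference of 5.80-fold (log2 −2.54) has the smallest q-value of the authors' deposited table, 0.0141, shared by 51 of 63 entries. pqn-54 stood above pqn-63 in both strains, 1.48-fold in N2 and 1.82-fold in VZ1.

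abu-12 (WBGene00004127) is the longest of the prion-like loci, at 450440 to 457635 of chromosome X in ce10. It lies on the minus strand and is annotated with 3 transcripts of 12 or 13 exons, which the table does not separate. Its level was 53.2 FPKM in stressed N2 and 10.7 FPKM in stressed VZ1. The difference was 4.95-fold (log2 −2.31). Its q-value of 0.0133 is the smallest in the authors' deposited table, shared by 54 of 73 entries. Of 15 abu genes abu-12 is the only one listed in any table. That is 6.67% of them between the stressed strains, where 0.508% of genes tested are listed, but abu-12 was chosen because it was listed. Of 56 pqn genes 2 (3.57%) are listed between the unstressed strains, where 0.437% of genes tested are, and none between the stressed strains.

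**Figure D2:**
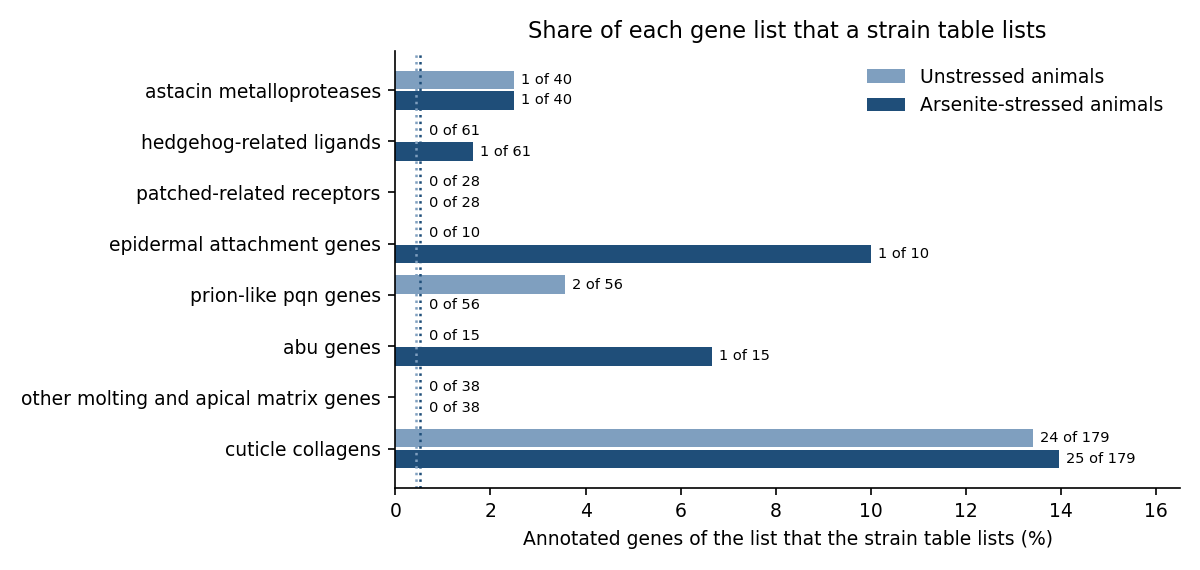
Percentage of the annotated genes of each list that a strain table lists, for unstressed animals (light bars) and arsenite-stressed animals (dark bars), with the number of genes beside each bar. Dotted lines mark the share of all tested genes listed, 0.437% and 0.508%, and the longest bars are those of the cuticle collagens (13.4% and 13.97%) and of the attachment genes, where 1 of 10 is listed. Outside the collagens every gene counted was chosen because it was listed, so no excess over the lines can be read from those bars. The bars are shares of annotated genes and the lines shares of tested genes, so their denominators differ.

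Over all 7 non-collagen lists, which hold 248 annotated genes, 3 genes are listed between the unstressed and 4 between the stressed strains. All are among the 7 described here. Of all genes tested, 0.437% and 0.508% are listed in the same comparisons. Because the members were chosen as listed, no excess can be read from the counts by list. The list of 38 other molting and apical matrix genes has no listed gene in any table. It includes the nuclear receptor genes nhr-23 and nhr-25, which control the molt, and the matrix genes noah-1 and fbn-1. Most listed cuticle collagens were also lower in VZ1, as were most listed genes of any kind. Of 179 collagen genes 24 are listed without stress, all lower in VZ1, and 25 under stress, 24 lower and 1 higher. Their median log2 ratio among lower genes was −3.88 without stress and −2.86 under stress, while that of the 3 genes of the set with a ratio was −2.54 and −2.18. The medians over all listed genes that were lower were −3.11 and −2.85. Where a ratio exists, the members' ratios thus lay mostly on the smaller side in both tables, and nas-27 alone exceeded the median of its table. nas-21 and the other genes listed at 0 in VZ1 have no ratio and enter none of these medians.

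**Figure D3:**
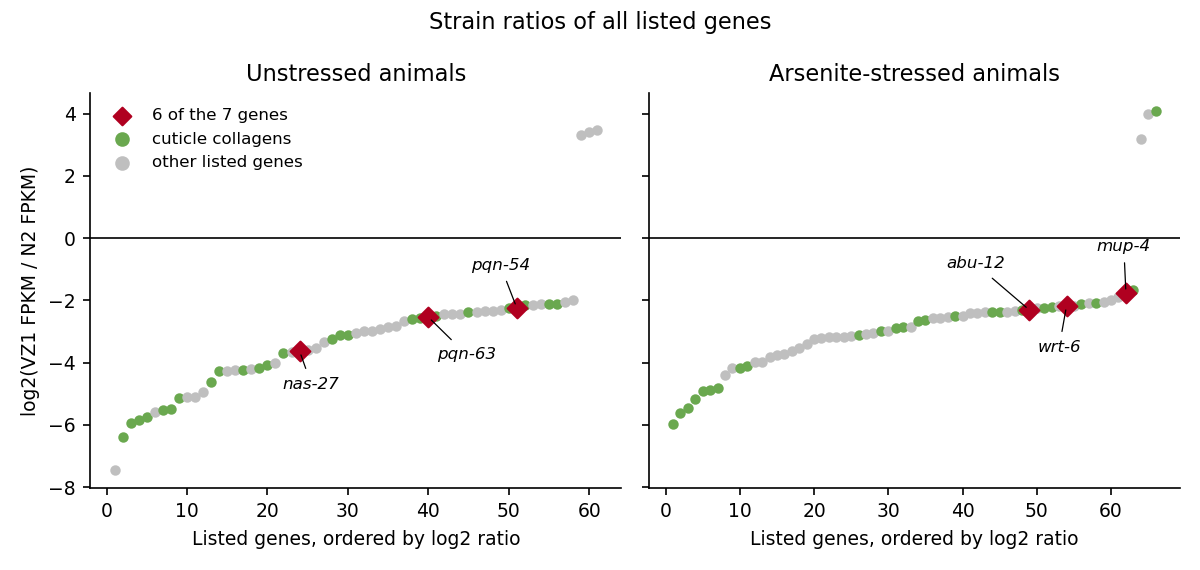
Log2 ratio of VZ1 over N2 FPKM for each listed gene with a value above 0 in both strains, ordered along the x axis, for unstressed (left) and stressed animals (right). Diamonds mark nas-27, pqn-63 and pqn-54, ranked 24th, 40th and 51st of 58 lower genes, and abu-12, wrt-6 and mup-4, ranked 49th, 54th and 62nd of 63 lower genes. Cuticle collagens are green.

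The levels of 6 of the 7 genes in N2 lay below the median of their table but above its lowest values, and nas-21 was the lowest entry of its table. Without stress they ran from 21.2 to 60.3 FPKM in N2, where the median of the 63 listed genes was 126 FPKM and that of the collagens 298 FPKM. Under stress they ran from 0.663 to 121 FPKM, against a median of 145 FPKM for the 73 entries and 312 FPKM for the collagens. Set beside listed genes within a factor of 2 of its N2 level, wrt-6 had a smaller fall than 19 of 22, mup-4 than 20 of 20, abu-12 than 11 of 15, pqn-54 than 15 of 16 and pqn-63 than 11 of 16. nas-27 had a smaller fall than 4 of 11 such genes and so a larger one than 7. These genes were all selected as called, and the comparison describes the tables only.

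**Figure D4:**
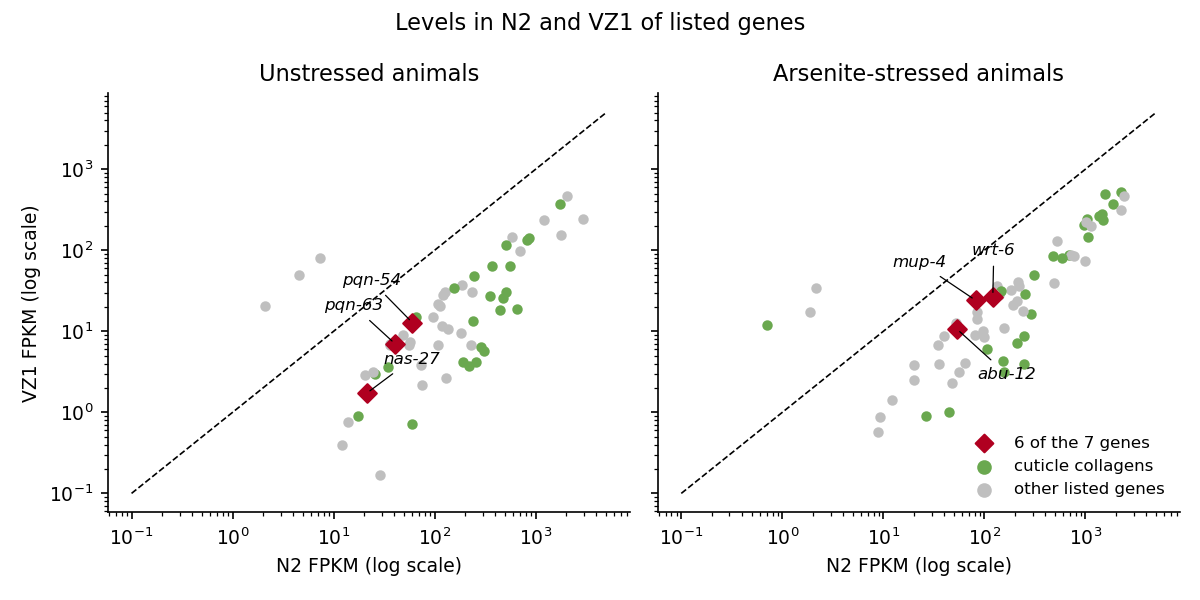
FPKM in N2 (x axis) and VZ1 (y axis), both on log scales, for each listed gene above 0 in both libraries, without stress (left) and under stress (right); the dashed line marks equal levels. The 6 diamonds lie below the line at N2 levels from 21.2 FPKM (nas-27) to 121 FPKM (wrt-6), and collagens (green) reach higher levels.

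The order of the levels was the same in both strains within each table. Without stress it was pqn-54, pqn-63, nas-27, and the span from first to last was 2.84-fold in N2 and 7.44-fold in VZ1. Under stress it was wrt-6, mup-4, abu-12, nas-21. wrt-6 stood 1.48-fold above mup-4 in N2 and 1.11-fold above it in VZ1. With 1 library per group, none of these neighbours in the order can be said to differ.

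Of the 18 genes with the nearest log2 ratios, over the 2 libraries of a table, 9 were collagens, 6 of 9 without stress and 3 of 9 under stress. Collagens also make up 24 of the 58 genes lower in VZ1 with a ratio without stress and 24 of 63 under stress. For pqn-63 (−2.54) the nearest genes were col-157 (−2.52), col-133 (−2.58) and col-161 (−2.61). For pqn-54 (−2.24) they were col-77 (−2.24), the small heat shock protein gene sip-1 (−2.30) and col-12 (−2.16). For nas-27 (−3.63) they were F15E11.15, now named pud-3 (−3.65), C02E7.7 (−3.61) and the locus of col-129 and dlc-2 (−3.70). Under stress wrt-6 (−2.18) was nearest to H23N18.5 (−2.18), T06D8.10 (−2.17) and col-145 (−2.21). abu-12 (−2.31) was nearest to col-38 (−2.32), ZK84.1 (−2.33) and mam-2 (−2.36). mup-4 (−1.77) was nearest to the collagen gene dpy-4 (−1.67), F10D11.6 (−1.90) and the locus of D1086.10, D1086.18 and D1086.7 (−1.995). A likeness over 2 libraries is only a like ratio.

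Within 10 kb of a member the tables list 1 other gene. T06E4.8, named idpc-5 in RefSeq, lies 4.57 kb from pqn-63 at 9622080 to 9622907 of chromosome V in ce10. It stood at 113 FPKM in unstressed N2 and 20.8 FPKM in unstressed VZ1, a log2 ratio of −2.45 beside the −2.54 of pqn-63.

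None of the 7 genes is listed for stress in N2, where 1.05% of genes tested are, or for stress in VZ1, where 0.735% are. The stress tables thus give no arsenite response for any of them. Nor is any listed in both strain tables, which share 32 gene names, 49.2% of those without stress and 41.0% of those under stress. Of the collagens, 16 of 24 without stress and 16 of 25 under stress are in both tables, 15 of them in the same direction. These shares were not compared by a test. A member missing from a strain table either had a p-value above the largest one listed there, 0.0002 without stress and 0.00025 under stress, or was not tested. Whether arsenite changed the strain difference of any of the 7 genes was not tested, since no level is given for the other pair of libraries.

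Yolk and oocyte genes, which mark the adult intestine and germline, also moved with the strains. Of the vitellogenin genes 4 were lower in VZ1 without stress and 1 under stress, vit-6, which stood at 232 and 6.69 FPKM without stress and at 52.3 and 12.6 FPKM under stress. Within N2, 5 vitellogenin genes are also listed as lower with arsenite. Among them, vit-6 stood at 236 and 51.8 FPKM without and with it, and vit-4 at 98.9 and 0.603 FPKM. Without stress the oocyte gene puf-5 stood at 35.9 and 7.002 FPKM in N2 and VZ1, and the eggshell gene cpg-2 at 126 and 30.2 FPKM. Of the 4 chosen intestine markers, the yolk genes vit-2 and vit-6 are listed, while ges-1 and elt-2 are not. None of the chosen markers of body wall muscle, germline, neurons and pharynx is listed. The part of these differences in those of the 7 genes was not tested.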

How the data were processed

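Per the labels' protocols, Trizol was used to take total RNA from young adult worms. TopHat, Bowtie2, Cufflinks and the build ce10 were used, per the submitters' processing notes. No version, strandedness or annotation is given in the sources used here. The layout is that of Cuffdiff, per the file headers, and the FPKM of each library was computed by the authors for each of 4 pairs of libraries on its own. The p-value and q-value of each gene were also deposited by the authors. Every listed row is marked significant, so the tables hold called genes only.

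Log2 ratios of VZ1 over N2 were computed here without a pseudocount, in Python 3.11.15 with pandas 2.3.3. A gene at 0 has a direction and no ratio. How many genes were tested follows from the deposited p- and q-values (q multiplied by rank, over p), which gave 1 number per table at every p-value listed, a step tested on simulated data. No test was run here, because each group has 1 library. The authors' test compares 2 libraries and not 2 conditions.

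Exon numbers, transcript lengths and gene order come from WBcel235 (Ensembl and RefSeq), and all 7 genes matched there. Coordinates are the tables' own, in ce10. Fragments per 1000000 mapped are FPKM times the length of the longest annotated transcript in kb, and are approximate. The members and the 8 gene lists were chosen with earlier results of these data known. The text names all 7 members, non-collagen list genes listed between strains, the 3 genes of nearest ratio and listed neighbours within 10 kb. Listed collagens were named only for a near ratio or, for col-157, also for lying near nas-21. The plan to name the 5 of largest ratio per table was not followed for collagens. Genes at 0, yolk and oocyte genes, pqn-90 and pqn-91 were named after their values were seen. Alternatives were pseudocounts of 0.1 and 1, a q-value of at most 0.02, an FPKM of at least 1, loci with 1 gene name, and current gene names.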

Additional observations from a re-analysis of the deposited data

How the results depend on the processing

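No direction reversed under the alternatives run. None could, since adding the same amount to both levels or filtering genes cannot change the sign of a ratio. Adding 0.1 FPKM gave log2 ratios of −3.55 for nas-27, −2.23 for pqn-54, −2.52 for pqn-63 (also the median without stress), −2.17 for wrt-6 (also the median under stress), −1.76 for mup-4 and −2.30 for abu-12. Adding 1 FPKM gave −3.03, −2.15, −2.38, −2.14, −1.73 and −2.21 in the same order, with medians of −2.38 and −2.14. A pseudocount pulls low values most by construction, here nas-27. With a q-value of at most 0.02, 2 of the 3 genes listed without stress and 3 of the 4 under stress were left, without pqn-54 and mup-4. The pqn genes between unstressed strains then numbered 1, the attachment genes under stress 0, and the pqn genes for stress in N2 1. An FPKM of at least 1 removed nas-21, which left 3 members and 0 astacin genes under stress, and both pqn genes (0 left) for stress in N2. Keeping only loci with 1 gene name could change neither the counts nor the medians of the members, whose loci each carry 1 name. Current gene names changed none of the counts by list. No paired analysis was possible because each group has 1 library, and for the same reason no library could be left out. Stress ratios and likeness over all 4 libraries were not run, since no member has a value in all 4. nas-21 got no ratio under any pseudocount. The depth of the libraries is unknown and no detection limit can be given.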

Other observations

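The 2 other prion-like genes that the tables list are pqn-90 and pqn-91, for stress in N2. pqn-90 stood at 0.664 FPKM in unstressed N2 and pqn-91 at 0.441 FPKM, and both were listed at 0 in stressed N2. Their levels are near that of nas-21, which stood at 0.663 FPKM in stressed N2. In the authors' deposited table their q-values are 0.00735 and 0.0297. The collagen gene col-157 lies 10.2 kb from nas-21, just beyond the distance used for neighbours, and was lower in VZ1 both without stress (369 and 64.5 FPKM) and under stress (252 and 29.0 FPKM).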
